A study of Oryza sativa Indica Group and Oryza sativa Japonica Group with 12 samples.

Results

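H3K27me3 loop anchors around the 12 listed pericentromeric positions of rice were described in Dongjin seedlings and in osemf2b seedlings. An anchor is a stretch of DNA at 1 end of a chromatin loop, and it was taken when its midpoint lay within 2 Mb of the position listed for its chromosome. The positions were 16.7, 13.6, 19.4, 9.7, 12.4, 15.3, 12.1, 12.9, 2.8, 8.2, 12 and 11.9 Mb on chromosomes 1 to 12 in that order. The rule gave 651 of 10393 anchors in Dongjin and 411 of 6700 in osemf2b. No map of centromeres in the coordinates of the lists was used here, so the name pericentromeric comes from the positions and was not tested on the files.

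The loops came from ChIA-PET, in which chromatin bound by an antibody is ligated to chromatin lying close to it and both ends of each ligated fragment are sequenced as a paired-end tag (PET). Both groups were seedlings, the first of the cultivar Dongjin and the second labelled osemf2b with the same cultivar, and both were precipitated with H3K27me3 antibodies (Abclonal, A2363) after fixation in 1% formaldehyde for 10 min and 1.5 mM EGS, a longer cross-linker, for 30 min. The labels give neither the osemf2b allele nor the age of the plants. Each group had 2 samples, which reached the deposited data as 1 pooled list of loops.

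H3K27me3 is the histone mark that Polycomb repressive complex 2 writes, and it covers silent developmental genes in plants. EMF2 proteins, of which OsEMF2b is a rice member, are subunits of that complex. Chromatin next to plant centromeres is rich in transposons and repeats and poor in genes, and it is silenced mainly by DNA methylation and H3K9 methylation. Reads from repeats are hard to place on a genome, and the handling of such reads is among the steps not given in the sources used here. Its part in the results below was not tested.

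The Dongjin list held 94432 loops and 818847 PETs, and the osemf2b list held 15913 loops and 282020 PETs. The total tags behind the deposited p-values were 39.4 M in Dongjin and 31.2 M in osemf2b. A single pooled list per group has no spread between replicates, so no difference between the groups could be tested and no p-value is given. Values in parentheses are 95% intervals for counting error alone, and since PETs are amplified molecules the full errors are wider. Each position with 2 Mb on either side is called a window, and the windows held 48.0 of 372.4 Mb, or 12.9% of the sequence up to the last anchor of each chromosome.

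Anchors were sparse in the windows. In Dongjin the windows held 13.6 anchors per Mb (12.5 to 14.6), against 30.0 per Mb (29.4 to 30.6) in the rest of the chromosomes. This is a density 0.452 times that of the rest (0.416 to 0.489). In osemf2b the density was 8.56 per Mb (7.75 to 9.43) in the windows and 19.4 (18.9 to 19.9) elsewhere, a ratio of 0.442 (0.399 to 0.488). The osemf2b list had fewer anchors in both places, and the ratio of windows to rest was nearly the same in both lists. Anchors covered 46.7 kb per Mb of window and 139 kb per Mb elsewhere in Dongjin, and 26.9 and 71.9 kb per Mb in osemf2b.

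Every chromosome had a lower density in its window than outside it in both lists. In Dongjin the ratio was lowest on chromosome 4, at 0.286, where the window held 31 anchors. It was highest on chromosome 6, at 0.637, with 77 anchors. In osemf2b the lowest ratio was again that of chromosome 4, at 0.256 with 17 anchors, and the highest that of chromosome 11, at 0.588 with 50 anchors. Leaving out each chromosome in turn kept the log2 ratio between -1.2 and -1.11 in Dongjin and between -1.25 and -1.13 in osemf2b.

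Density was lowest next to the position itself. In Dongjin it was 5.17 anchors per Mb (3.96 to 6.62) in the innermost 0.5 Mb on each side, 12.2 from 0.5 to 1 Mb, 18.2 from 1 to 1.5 Mb and 18.7 from 1.5 to 2 Mb. Outside the window it was higher again, if unevenly, from 20.4 per Mb at 2 to 2.5 Mb to 34.1 (30.8 to 37.6) at 7 to 7.5 Mb. The osemf2b list had the same course at lower values, with 3.25 per Mb (2.31 to 4.44) in the innermost bin, 11.8 from 1.5 to 2 Mb and 20.1 from 7 to 7.5 Mb. The limit of 2 Mb therefore lies on a slope and not at a step: anchors from 1.5 to 2 Mb had a median width of 2410 bp in Dongjin, and those from 2 to 2.5 Mb one of 2020 bp.

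**Figure D1:**
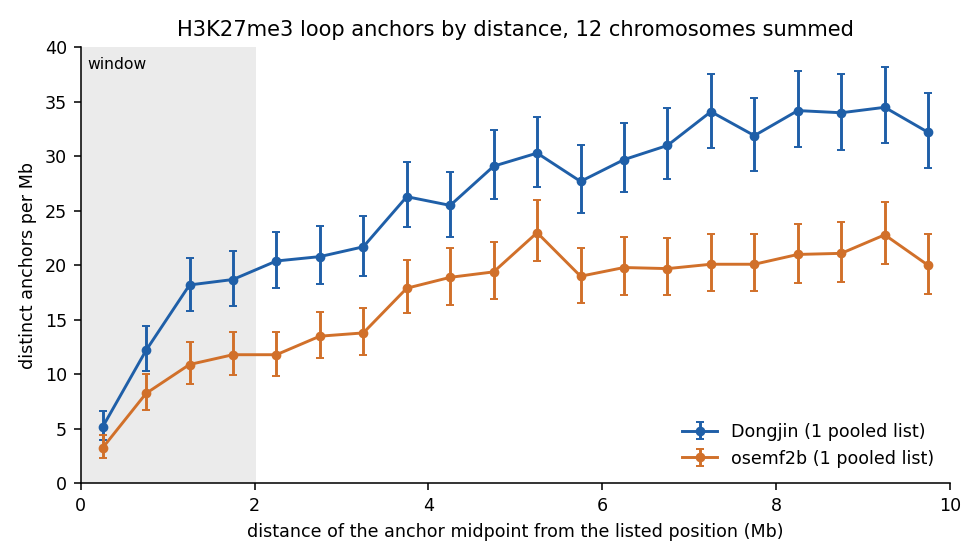
Anchors per Mb (vertical axis) in bins of 0.5 Mb by distance from the listed position (horizontal axis, Mb), summed over 12 chromosomes, for the Dongjin and osemf2b lists; bars are exact Poisson 95% intervals and the grey band marks the window. Both lines start near 5.17 and 3.25 per Mb and go on climbing beyond the window.

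None of the 12 positions lay in an anchor of either list. The stretch without an anchor around the position had a median of 644 kb in Dongjin, from 123 kb on chromosome 6 to 1140 kb on chromosome 8. In osemf2b its median was 910 kb, from 140 kb on chromosome 6 to 1516 kb on chromosome 8. The median of all gaps between neighbouring anchors was 14.7 kb in Dongjin and 21.7 kb in osemf2b. The gap at the position was the longest of its whole chromosome on 8 of 12 chromosomes in Dongjin and on 7 of 12 in osemf2b. On chromosome 6 the gap at the position ranked 31 of 895 in Dongjin and 48 of 561 in osemf2b. The longest gap of chromosome 6 was centred 0.46 Mb from the position in Dongjin, at 608 kb. In osemf2b it was centred 3.4 Mb away, at 936 kb. The longest gap was centred within 2 Mb of the position on 10 of 12 chromosomes in Dongjin and on 8 in osemf2b.

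The longest gap of the Dongjin windows lay on chromosome 8 between chr8:12831915-12832826, an anchor of 2 PETs, and chr8:13972338-13975252, with 23 PETs. On chromosome 5 the gap was 304 kb in Dongjin, and its left edge was the anchor chr5:12305386-12315495 with 93 PETs, which is 10.6 kb wide when merged with the osemf2b anchor that overlaps it. The sides of a window could differ: chromosome 11 held 62 Dongjin anchors to the left of its position and 14 to the right, and 45 and 5 in osemf2b. Chromosome 4 leaned the other way, with 10 anchors on the left and 21 on the right in Dongjin and 3 and 14 in osemf2b. Since the positions are rounded to 0.1 Mb, part of a gap's placement follows from the rule.

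**Figure D2:**
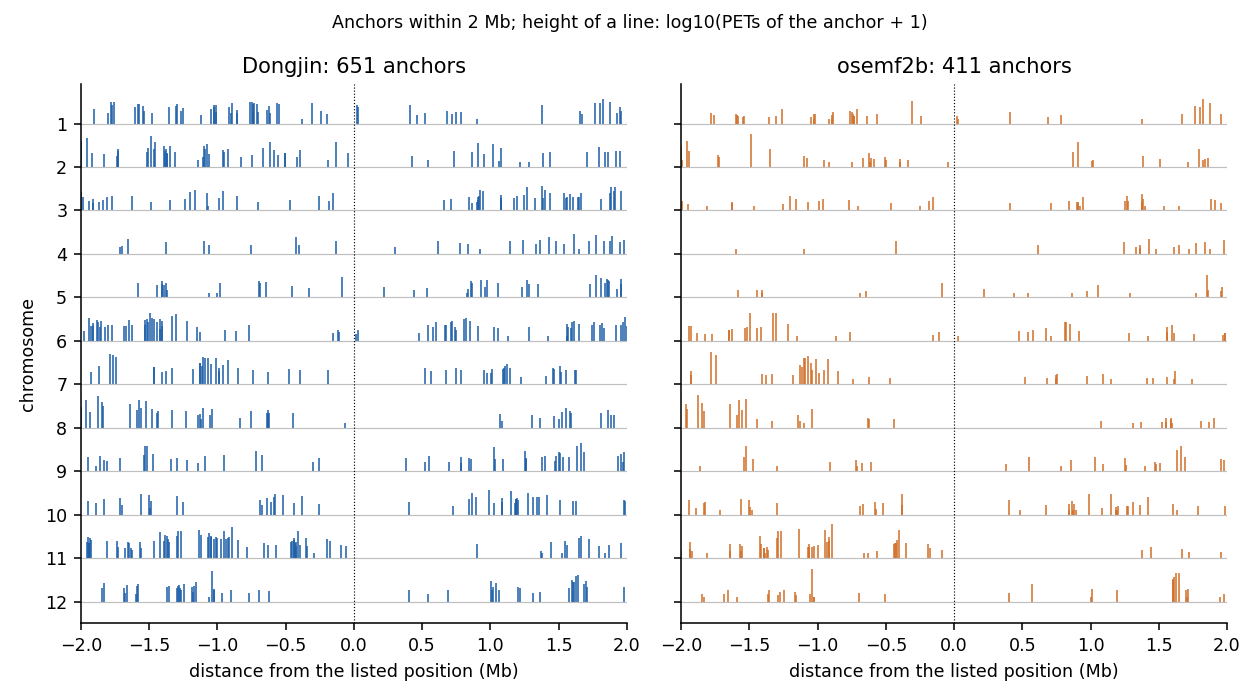
Each line is an anchor at its distance from the listed position (horizontal axis, Mb) on chromosomes 1 to 12 (rows), with its height on a scale of log10(PETs + 1), for the 651 Dongjin and 411 osemf2b anchors. Most rows are sparse near the dotted line, and chromosome 11 has most of its anchors on the left in both lists.

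Window anchors in Dongjin were slightly narrower and carried fewer tags than the others, and in osemf2b the medians did not differ beyond counting error. The Dongjin differences were within counting error among anchors of loops with more PETs: the log2 ratio of median widths was -0.1 (-0.25 to 0.02) at 3 PETs and -0.13 (-0.26 to 0.06) at 5, and that of tags -0.18 (-0.39 to 0.04) and -0.17 (-0.34 to 0.03). Tags are reads at an anchor, whether or not they take part in a loop. The median width in Dongjin was 2171 bp (1965 to 2325) in the windows and 2446 bp (2367 to 2512) elsewhere. The median tags per anchor were 502 (429 to 567) and 625 (598 to 652), and per kb of anchor they were 229 (220.8 to 243.7) and 261 (257.9 to 264.6). In osemf2b the median width was 1347 bp (1188 to 1516) in the windows and 1308 bp (1272 to 1353) elsewhere, with median tags of 186 (157 to 236) and 177 (168 to 187). Of the Dongjin window anchors 8, or 1.23% (0.532 to 2.41), were at least 20 kb wide, against 315 or 3.23% (2.89 to 3.6) elsewhere. In osemf2b these were 8 anchors, 1.95% (0.844 to 3.8), and 233 anchors, 3.7% (3.25 to 4.2), with overlapping intervals.

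Fewer loops ended at a window anchor. The median number of partners, the anchors it was looped to, was 10 (9 to 11) in the Dongjin windows and 14 (13 to 14) elsewhere. The difference lay in partners on the same chromosome, with medians of 4 (3 to 4) and 7 (6 to 7), while partners on other chromosomes had medians of 6 (6 to 7) and 7 (6 to 7). The median PETs per anchor were 29 (27 to 33) in the windows and 50 (48 to 51) elsewhere. In osemf2b both medians of partners were 3, and the PETs per anchor were 7 (6 to 8) and 9 (8 to 9).

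The windows' share of each list was therefore below their 12.9% of the sequence in every measure. They held 6.26% of anchors, 3.75% of anchor tags and 2.82% of PET ends in Dongjin. They held 6.13% of anchors, 5.1% of anchor tags and 4.83% of PET ends in osemf2b, so that their share of anchors was much the same in both lists and their share of PET ends was larger in osemf2b.

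Loops with both anchors in the same window were short. In Dongjin 1253 such loops had a median span of 102 kb (91.7 to 111), against 207 kb (203 to 210) for the 47098 loops with no anchor in a window. A window cannot hold a loop longer than 4 Mb, so the same measure was taken in windows of the same size at 239 arm positions, placed every 1 Mb at least 4 Mb from the listed position and 2 Mb from a chromosome end. There the median span of loops with both anchors inside was 143 kb in Dongjin and 72.7 kb in osemf2b, beside 102 kb and 76.3 kb (57.9 to 105) in the listed windows. Neighbouring arm windows overlap, so they are no independent points.

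Loops with 1 anchor in the window reached far. The 1171 such loops in Dongjin had a median span of 5561 kb (5156 to 6056), and 632 of them, or 54.0% (51.1 to 56.9), spanned over 5 Mb. In osemf2b 154 such loops had a median of 7301 kb (6367 to 8223). Arm windows gave medians of 4.23 Mb in Dongjin and 6.99 Mb in osemf2b. Loops with at least 1 anchor in a window had a median span of 442 kb (383 to 521) in Dongjin and 257 kb (162 to 372) in osemf2b. Loops chosen by the same rule at arm windows had medians of 318 kb and 160 kb. A long loop has 2 separate chances to touch a window, so the median of 207 kb for loops that touch none is no like measure. Against those loops the log2 ratio of medians in Dongjin was 1.1 (0.89 to 1.34), and among loops of at least 5 PETs it was -0.22 (-0.46 to 0.03). Of the Dongjin loops with 1 anchor in a window, 55.4% (52.5 to 58.3) had 2 PETs, against 26.0% (25.6 to 26.4) of the loops with none. These 2 classes differ in span, and the part of span was not tested. With both anchors in the window the share was 28.7% (26.2 to 31.3). Among all Dongjin loops over 1 Mb that did not cross a listed position it was 39.5% (38.4 to 40.6).

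The windows held fewer internal loops than arm windows of the same size. A listed window contained a median of 89 loops with both anchors inside in Dongjin (lowest 16, highest 248), against 458 in the arm windows (lowest 157, highest 1390). In osemf2b the medians were 14 (lowest 0, highest 58) and 59 (lowest 6, highest 365). Of all loops on the same chromosome that touched a listed window, 51.7% lay wholly inside it in Dongjin and 59.7% in osemf2b, and for arm windows these shares were 66.5% and 69.8%.

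Loops that joined both sides of a listed position were numerous but long. In Dongjin 2966 loops, 5.99% of those within a chromosome, had their anchors on opposite sides, with a median span of 16.6 Mb (16.3 to 16.9). In osemf2b there were 469, or 6.89%, with a median of 17.1 Mb (16.3 to 18.0). Of these, 1721 in Dongjin had 2 PETs, or 58.0% (56.2 to 59.8). The number of loops over a position had a median of 252 at the listed positions and 250 at the arm positions in Dongjin, and 41 and 35 in osemf2b. The position on chromosome 9, at 2.8 Mb close to a chromosome end, had the fewest, 17 in Dongjin and 4 in osemf2b.

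Of the loops that had an anchor in the window, 18.0% (16.5 to 19.6) crossed the position in Dongjin, or 437 of 2424, and 18.1% (14.3 to 22.3) in osemf2b, or 69 of 382. At the arm positions the median of this share was 18.1% in Dongjin and 17.1% in osemf2b, so the share lay within counting error of that at the arm positions. Crossing at short range was rare. Loops with both anchors within 2 Mb on opposite sides numbered 27 in Dongjin, at most 6 on 1 chromosome, with a median of 2 per position against 39 (lowest 6, highest 353) at arm positions. In osemf2b there were 2, on chromosomes 2 and 8, each with 2 PETs, and the arm positions had a median of 3 (lowest 0, highest 69).

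Sparse anchors leave fewer pairs that a loop could join, so the loops were also counted per 1000 pairs of anchors on opposite sides. Arm windows overlap, so a pair can count at several arm positions, and the intervals given for arm positions are too narrow. For anchors 1 to 2 Mb apart, 2.13 pairs per 1000 (0.58 to 5.44) were joined over the listed positions in Dongjin, or 4 of 1881, and 10.8 (10.5 to 11.1) over arm positions. On the same side of the listed positions 4.95 per 1000 (2.14 to 9.73) were joined at this distance, and 12.5 in the arm windows. For anchors 2 to 4 Mb apart the values over the position were 2.72 (1.58 to 4.34) and 5.23 (5.03 to 5.45). Below 0.5 Mb, 3 of 17 pairs were joined over the listed positions, 176 per 1000 (38 to 434), and 130 (127 to 134) over arm positions. This value was the higher, within counting error. At 0.5 to 1 Mb, 17.6 per 1000 (3.65 to 50.7) and 32.4 (31.2 to 33.6) also did not differ beyond counting error. In osemf2b 2 of 2336 pairs at 2 to 4 Mb were joined, 0.856 per 1000 (0.104 to 3.09), beside 1.13 over arm positions, and a difference was not detectable at this depth. Anchor tags and PETs per anchor were also lower in the Dongjin windows, and their part in the lower share was not tested.

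**Figure D3:**
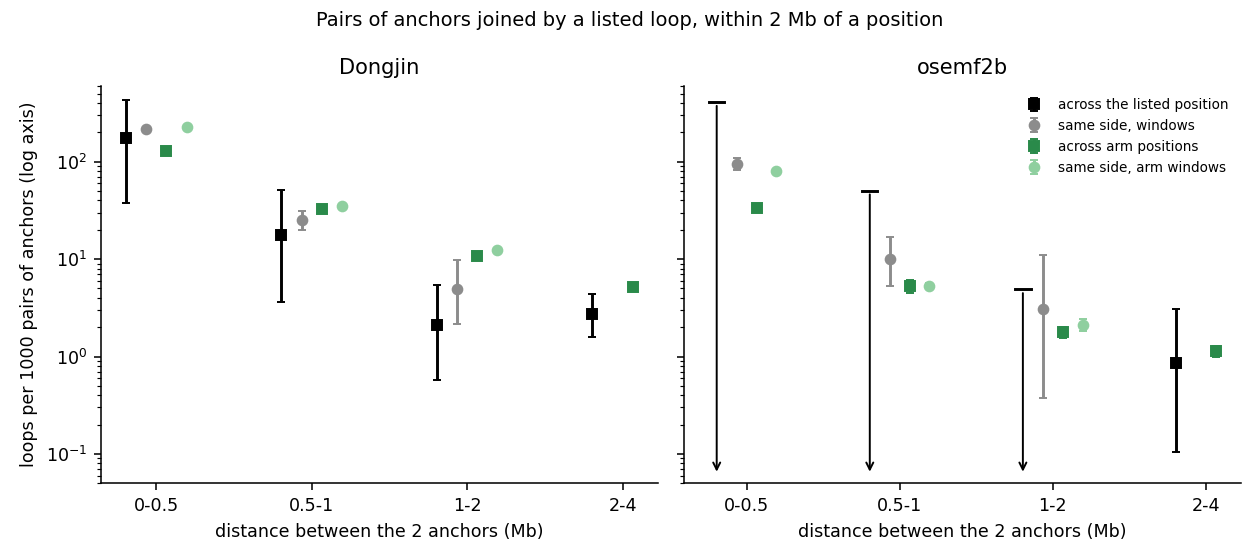
Loops per 1000 pairs of anchors within 2 Mb of a position (vertical log axis) by the distance between the anchors (horizontal axis, Mb), for pairs on opposite sides (squares) and on the same side (circles) of the 12 listed and 239 arm positions; bars are exact 95% intervals, and arrows mark upper limits where no pair was joined. In Dongjin at 1 to 2 Mb the listed positions lie at 2.13 and the arm positions at 10.8. Arm windows overlap and can count a pair more than once, so the arm intervals are too narrow.

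The crossing loops with both anchors in a window were weak. The strongest in Dongjin joined chr11:11092453-11119435 to chr11:13660301-13670261 over 2.56 Mb with 10 PETs, and 16 of the 27 had 2 PETs. The longest crossing loop of Dongjin joined chr1:533969-540212 to chr1:42941082-42949222, over 42.4 Mb, with 4 PETs. None of these is listed in osemf2b.

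A single anchor on chromosome 12 carried the crossing loop with the most PETs in both lists. The anchor chr12:10856624-10859508, 2885 bp wide and 1.04 Mb to the left of the position, was joined to chr12:23980213-23985729, 13.1 Mb away, by 738 PETs in Dongjin. The tags at both anchors, multiplied and divided by the total tags of the list, gave a chance value of 0.855 PETs. In osemf2b the matching anchor chr12:10856349-10859774 was joined to chr12:23978573-24031329 by 1614 PETs, against a chance value of 48.7. This osemf2b partner was wider and also overlapped the Dongjin anchor chr12:23998193-24027398, which had a further 145 PETs. The Dongjin loops matching the osemf2b loop had 945 PETs in all. The counts of 738 and 1614 and their chance values are therefore for unlike partner anchors. This anchor had no listed loop within 1 Mb in either list. It carried 1112 of 12060 crossing PETs in Dongjin, or 9.22%, and 1714 of 4333 in osemf2b, or 39.6%. Without it the crossing PETs were 10948 in Dongjin and 2619 in osemf2b. Whether its sequence lies at this place in the Dongjin genome was not tested.

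The next crossing loop by PETs behaved otherwise. It joined chr2:12095012-12135264, a 40.3 kb anchor, to chr2:17161342-17319615 by 160 PETs in Dongjin, against a chance value of 97.7, and by 340 PETs in osemf2b between overlapping anchors, against 269. Both of its anchors were among those richest in tags, and its PETs stood less than 2-fold above the chance value. Of the 114 Dongjin crossing loops with at least 10 PETs, 22 had an anchor in a window, and in osemf2b 6 of 33 did.

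Loops to other chromosomes took a larger share of the loop ends in the windows than elsewhere. In Dongjin 57.8% (56.7 to 58.8) of the 8705 loop ends in windows belonged to interchromosomal loops, against 47.1% (46.8 to 47.3) of those elsewhere. In osemf2b the shares were 65.5% (63.2 to 67.7) of 1766 ends and 56.7% (56.2 to 57.3). Of all loops that touched a window, the interchromosomal share had a median of 68.5% over the listed windows (lowest 60.5%, highest 77.5%) and of 60.5% over arm windows (lowest 41.6%, highest 73.4%) in Dongjin. Counted in PET ends, 30.7% in the windows and 16.0% elsewhere were interchromosomal in Dongjin, and 37.4% and 24.3% in osemf2b. Anchors without any partner on their own chromosome made up 9.52% (7.38 to 12) of window anchors and 3.86% (3.49 to 4.26) of others in Dongjin, and 45.7% (40.8 to 50.7) and 31.8% (30.7 to 33.0) in osemf2b.

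Windows of different chromosomes were joined about as often as their numbers of loop ends alone would give. Such loops numbered 146 in Dongjin, where the windows' share of all interchromosomal loop ends would give 140. In osemf2b there were 36, beside 36.2 from the same product. The Dongjin loops of this kind had at most 7 PETs, as between chr11:11092453-11119435 and chr7:13605605-13610396. In osemf2b the strongest joined chr11:11090153-11121722 to chr2:12085028-12141400 with 304 PETs, against a chance value of 248 from the tags. The next strongest, between chr1:16391003-16397728 and chr8:11012214-11041425, had 50 PETs against 22.8. None of these window-to-window loops named in one list was found in the other, and 0 of the 146 Dongjin loops had a counterpart in osemf2b, which allows up to 2.49%. Of interchromosomal loops with no window anchor 0.145% (0.11 to 0.187) had one.

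The window anchors with the most partners were wide and rich in tags, and 4 of the 5 leading places were shared by both lists. The anchor chr11:11092453-11119435, 27 kb wide and 0.89 Mb to the left of the position, had 100 partners in Dongjin, 32 on its own chromosome and 68 on others, with 1302 PETs and 33164 tags. It ranked 33 in the whole list. Its osemf2b counterpart, chr11:11090153-11121722, had 35 partners, with more PETs and tags, 2351 and 77995. The anchor chr2:12095012-12135264 had 81 partners and 1176 PETs in Dongjin, and chr2:12085028-12141400 had 29 partners and 1972 PETs in osemf2b. On chromosome 8, chr8:11014625-11038985 had 78 partners and 1249 PETs in Dongjin, and chr8:11012214-11041425 had 30 and 1744 in osemf2b.

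At each of these 3 places osemf2b had fewer partners and more PETs than Dongjin. The leading osemf2b anchor by partners was chr7:10297206-10345757, 48.6 kb wide, with 39 partners, 1499 PETs and 89177 tags. It overlapped 2 Dongjin anchors, which had 23173 tags in all. The remaining Dongjin leaders were chr2:11635003-11655511 and chr11:10857901-10873176, both with 63 partners. The second of these had 646 PETs in Dongjin and 679 in osemf2b, where its counterpart had 29 partners.

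Retention was measured as the share of Dongjin anchors that overlapped an osemf2b anchor. It was 52.8% (48.9 to 56.7) in the windows, or 344 of 651, and 50.2% (49.2 to 51.2) elsewhere. The difference of 2.66 percentage points had an interval from -1.39 to 6.67, so it was within counting error. It was outside counting error, in the same direction, under some other definitions: 5.32 points (0.967 to 9.58) for anchors of loops with at least 3 PETs, and 6.26 points (2.62 to 10.1) when an overlap had to cover 0.5 of the Dongjin anchor. Under others it stayed within counting error: 5.0 points (-0.0905 to 9.9) at 5 PETs, 4.28 (-2.8 to 11.2) with windows of 1 Mb and 0.983 (-2.13 to 4.09) with 3 Mb. By chromosome the window share ran from 45.9% on chromosome 3 to 67.4% on chromosome 10, where it was 48.4% and 48.1% outside the window. Without chromosome 10 the difference was 1.4 points (-2.8 to 5.57). An anchor that is missing from the osemf2b list fell below the thresholds of the loop calls, and its contacts may still exist.

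Within classes of width the windows had the higher share each time. Below 1000 bp 21.6% (15.1 to 29.4) of window anchors and 15.4% (13.9 to 17.0) of others were found again. From 1000 to 2000 bp these were 42.3% (34.7 to 50.1) and 32.4% (30.4 to 34.4), where the difference of 9.86 points had an interval from 2.02 to 18.0. From 2000 to 5000 bp they were 59.3% and 54.8%, and from 5000 to 10000 bp 85.4% and 80.5%, with overlapping intervals. All 39 window anchors of at least 10 kb were found again, against 96.9% (95.6 to 97.8) of the others. The share differed more between classes of width than between the windows and the rest.

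**Figure D4:**
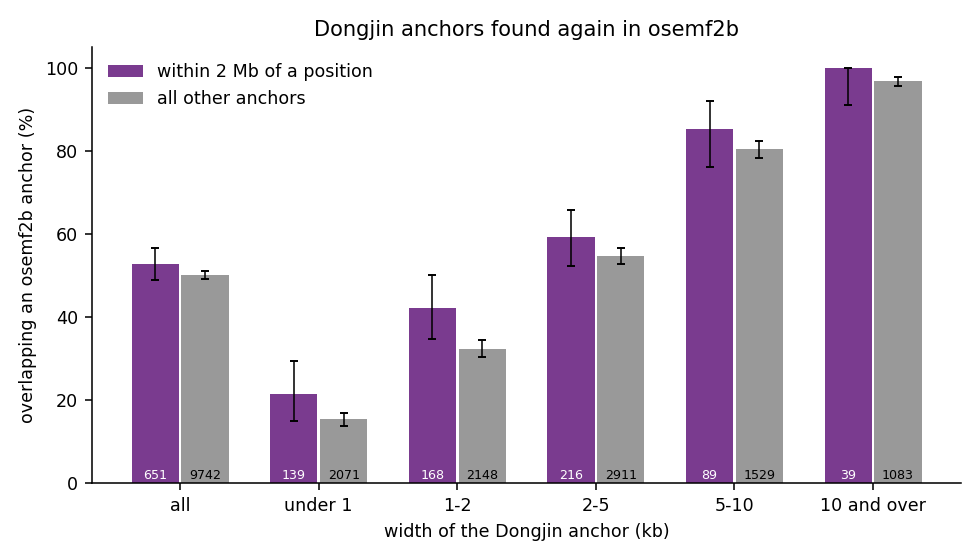
Share of Dongjin anchors that overlapped an osemf2b anchor (vertical axis, %) for all anchors and by anchor width (horizontal axis, kb), in the windows and elsewhere; bars start at 0, error bars are exact Clopper-Pearson 95% intervals and the numbers of anchors stand at the foot. The share climbs from 21.6% to 100% with width in the windows, and each window bar is above its neighbour.

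The window anchors found again had a median width of 3142 bp, 930 tags and 44.5 PETs, and carried 80.0% of the PETs of window anchors in Dongjin. The 307 that were not found had medians of 1334 bp, 264 tags and 20 PETs. In the other direction, 34 of 411 osemf2b window anchors, or 8.27% (5.8 to 11.4), overlapped no Dongjin anchor, against 3.31% (2.88 to 3.78) elsewhere. These 34 were small, with a median width of 452 bp and median PETs of 5, and carried 1.03% of the PETs of osemf2b window anchors. Loops were kept far less than anchors: 180 of 1253 Dongjin loops inside a window, or 14.4% (12.5 to 16.4), had both anchors joined in osemf2b too, and 19 of the 1171 loops with 1 anchor in a window, or 1.62% (0.98 to 2.52). The osemf2b list held only 228 loops inside a window, which limits the first share. Of these 228, 185 or 81.1% (75.4 to 86.0) were also in Dongjin, beside 70.6% (69.4 to 71.7) of osemf2b loops with no window anchor. With 1 window anchor 9.09% (5.06 to 14.8) of osemf2b loops were. Over all Dongjin loops touching a window 199 of 2424 were kept, or 8.21% (7.15 to 9.37), beside 9.06% (8.81 to 9.33) of the loops with no window anchor. These shares mix spans. At 100 to 1000 kb 11.9% (9.44 to 14.8) of loops inside a window were kept, and 8.82% (8.44 to 9.21) with no window anchor. Under 20 kb these were 13.9% and 11.8%, with overlapping intervals. Loops with 1 window anchor had lower shares at 100 to 1000 kb, 4.43%, and at 1 to 4 Mb, 1.8%, with overlapping intervals. Over 4 Mb the share was 0.98% (0.395 to 2.01) with 1 window anchor and 0.437% (0.27 to 0.667) with none. None of the 27 short-range crossing loops was kept, which allows a share of up to 12.8%, and of loops of 1 to 4 Mb with no window anchor 2.4% were kept.

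For levels, anchors of both lists were merged where they overlapped and the PETs of all loops ending in the merged region were divided by the list's total PETs. A region was called higher or lower in osemf2b when this share differed at least 2-fold with an interval that excluded 1. Among 461 window regions with at least 20 PETs, 57 were higher in osemf2b, or 12.4% (9.5 to 15.7), where the background over all 8032 regions was 5.19%. Lower were 259, or 56.2% (51.5 to 60.8), where the background was 74.0%. Outside the windows 4.75% (4.29 to 5.26) were higher and 75.1% (74.1 to 76.1) lower. The larger share of higher regions was not particular to the windows. It was 12.8% (9.36 to 16.9) from 1 to 2 Mb and 9.39% (7.7 to 11.3) from 4 to 6 Mb, with overlapping intervals. Between these it was 6.53% from 2 to 3 Mb and 7.84% from 3 to 4 Mb. Farther out it was 3.99% from 6 to 10 Mb and 3.32% beyond 10 Mb. These are shares of the listed PETs, and the calls depended on the scaling. Scaled on total tags, 16 window regions were higher and 355 lower, and on PETs as counted 5 were higher and 382 lower. Median log2 ratios over all regions with loops in both lists were -1.48, -2.68 and -3.02 under the 3 scalings. These medians were taken without the floor of 3 PETs that entered the calls. On total tags the share of higher regions was 3.47% (2.0 to 5.58) in the windows and 1.07% (0.851 to 1.33) elsewhere. On PETs as counted it was 1.08% (0.353 to 2.51) and 0.753% (0.571 to 0.974), which did not differ beyond counting error.

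Among regions with loops in both lists the median log2 ratio of osemf2b over Dongjin was -0.64 (-0.92 to -0.46) in the windows and -1.46 (-1.52 to -1.4) elsewhere. The tags at these regions were also less reduced in the windows, with median log2 ratios of -1.35 (-1.68 to -0.99) and -2.01 (-2.08 to -1.95), each list scaled on its total tags. The difference did not end at 2 Mb. The median log2 ratio of PETs was -0.63 within 1 Mb of the position, -0.7 (-1.01 to -0.41) from 1 to 2 Mb and -1.18 from 2 to 3 Mb. It was -1.0 (-1.2 to -0.66) from 3 to 4 Mb, where the interval overlaps that from 1 to 2 Mb. Farther out it was -1.16 from 4 to 6 Mb, -1.63 from 6 to 10 Mb and -1.56 beyond 10 Mb.

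The windows had the larger share of higher regions in each class of width, and in percentage points the difference was largest among wide regions. Width here is that of the region merged from both lists, so a wide osemf2b anchor can set the class. The classes are therefore not independent of the lists that the calls compare. Under 2000 bp 8.8% (4.48 to 15.2) of window regions and 2.26% (1.69 to 2.97) of others were higher, and from 5000 to 10000 bp 7.95% (3.26 to 15.7) and 4.0% (3.07 to 5.12), where the intervals overlap. Of 42 window regions of at least 10 kb, 25 had a higher share of PETs in osemf2b, or 59.5% (43.3 to 74.4), and 6 a lower one. Elsewhere 187 of 1100 were higher, or 17.0% (14.8 to 19.4), and 570 lower. The median log2 ratio over these wide regions was 1.49 (0.54 to 1.69) in the windows and -1.02 (-1.16 to -0.8) elsewhere. Their tags had a median log2 ratio of 1.64 (1.29 to 1.95) in the windows, above 0 at 37 of 42 regions. Elsewhere it was -0.23 (-0.49 to 0.0), above 0 at 501 of 1066 regions. Both medians elsewhere cover the 1066 wide regions with loops in both lists. By distance, 6 of 12 wide regions within 1 Mb were higher, 63.3% from 1 to 2 Mb, 23.5% (15 to 34.0) from 2 to 4 Mb and 15.2% (12.6 to 18.1) beyond 8 Mb.

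These calls too depended on scaling: on total tags 5 of the 42 wide window regions were higher and 11 lower, beside 2.73% higher and 68.5% lower elsewhere, and on PETs as counted 0 were higher, which allows up to 8.41%, and 15 lower, beside 1.64% higher and 74.6% lower elsewhere. On PETs as counted the share of higher wide regions was thus not above that elsewhere. The 25 were spread over 9 chromosomes, with 7 on chromosome 7 and 6 on chromosome 11. Without chromosome 7 the share was 51.4% and without chromosome 11 it was 54.3%. On chromosome 3, by contrast, 0 of 4 wide regions and 0 of 35 regions of any width were higher. A PET counts at both ends of its loop, so neighbouring regions that are looped to each other share PETs and are not independent.

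Of the 4 window regions with the most PETs in osemf2b, 3 were wide. The region chr11:11090153-11121722 had 1302 PETs in Dongjin and 2351 in osemf2b, a share 5.24 times higher (4.9 to 5.61). On chromosome 2, chr2:12085028-12141400 had 1204 and 1972 PETs, a ratio of 4.76 (4.42 to 5.11). The third by PETs was narrow, the 3.43 kb region chr12:10856349-10859774 of the crossing loop described above, with 1149 and 1748 PETs and a ratio of 4.42 (4.1 to 4.76). The region chr8:11012214-11041425 had 1249 and 1744 PETs, a ratio of 4.05 (3.77 to 4.36). Of the window regions with at least 500 PETs over both lists, 27 of 32 were higher, or 84.4% (67.2 to 94.7), and 25.0% (22.0 to 28.1) of such regions elsewhere. From 100 to 500 PETs these were 13.7% (7.49 to 22.3) and 3.32% (2.64 to 4.12). From 50 to 100 they were 6.03% and 1.87%, and from 20 to 50 4.59% and 1.79%, with overlapping intervals. These classes are set by the sum of the same PETs that the calls compare, and the calls are on shares of the listed PETs. The 4 named regions were chosen for their counts after the values were seen.

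**Figure D5:**
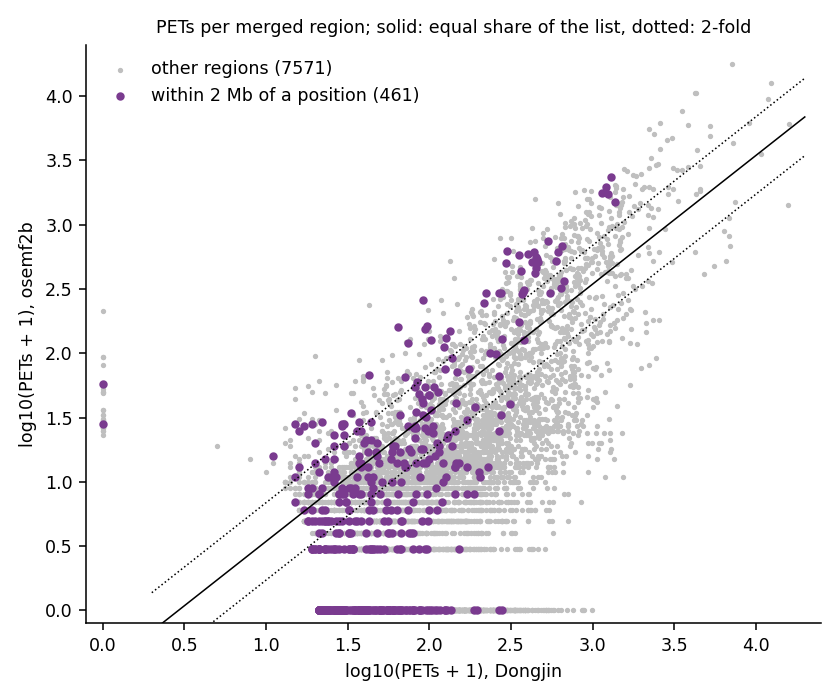
PETs per merged region in Dongjin (horizontal axis) and osemf2b (vertical axis), both as log10(PETs + 1), for 461 regions within 2 Mb of a position and 7571 others; the solid line marks an equal share of the list and the dotted lines 2-fold. Window regions with the most PETs lie above the solid line, and those at 0 on the vertical axis have no listed loop in osemf2b.

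The regions ranked highest by the bound of their interval included narrow ones. The region chr12:12472538-12474096 had no listed loop in Dongjin and 57 PETs in osemf2b, of which 41 led to chr9:5558804-5560603. The region chr7:11056200-11056702 also had no listed loop in Dongjin and had 27 PETs in osemf2b. No ratio is given for these, since loops below the thresholds of the calls may exist there. On chromosome 12 a group of neighbouring regions changed share together: chr12:13510033-13510827 had 91 PETs in Dongjin and 258 in osemf2b, a ratio of 8.23 (6.46 to 10.6), and chr12:13527670-13528889 had 297 and 619, a ratio of 6.05 (5.26 to 6.97). These were looped to each other, by 55 PETs in Dongjin and 187 in osemf2b, with midpoints 17.9 kb apart in Dongjin. The window of chromosome 12 was the only one whose PETs were more numerous in osemf2b as counted, with 3264 in Dongjin and 3708 in osemf2b. Of these, 1149 and 1748 belonged to chr12:10856349-10859774, the region of the crossing loop. Without that region the PETs of this window were fewer in osemf2b than in Dongjin.

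The region chr5:14254271-14255497 had 63 PETs in Dongjin and 160 in osemf2b, a ratio of 7.37 (5.48 to 10.0). In osemf2b none of its PETs stayed on chromosome 5: 78 joined it to chr8:4493495-4495449 and 77 to chr7:1429524-1456736. In Dongjin 14 of its PETs lay within chromosome 5, while 11 went to the same place on chromosome 8 and 24 to the same place on chromosome 7.

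The regions ranked lowest had no listed loop in osemf2b. Most lay beside a wide anchor to which they were looped in Dongjin. The region chr2:12142254-12147696 had 267 PETs in Dongjin, of which 216 joined it to the wide anchor chr2:12095012-12135264. Their midpoints lay 29.8 kb apart, and their edges were closer. The region chr11:10876325-10879472 had 186 PETs, of which 124 led to chr11:10857901-10873176, and chr6:13819010-13823362 had 195, of which 88 led to chr6:13796024-13812695. The region chr6:13829419-13834618, with 135 PETs, was joined to the same chromosome 6 anchor by 54. The anchors at the other end of these loops did not fall in the same way, as with chr6:13796024-13813386, merged from that anchor, at 610 PETs in Dongjin and 609 in osemf2b, a share 2.9 times higher (2.59 to 3.25).

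The region chr2:13470334-13471337, 0.13 Mb to the left of its position, differed from these. All of its 276 PETs in Dongjin were interchromosomal, and the 3 strongest partners lay together on chromosome 11. They were chr11:18635292-18655292 with 92 PETs, chr11:18530786-18627588 with 51 and chr11:18658966-18677106 with 48. Whether its sequence lies at this place in the Dongjin genome was not tested.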

How the data were processed

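H3K27me3 ChIA-PET loops of Dongjin and osemf2b seedlings were analysed. The authors deposited 1 list per group, pooling 2 samples, with 15 columns and no header. PETs per loop and tags per anchor were deposited by the authors as whole-number counts, not normalised. Significance was deposited as p-values and FDR, and again as −log10 values. Every FDR was at most 0.0499 and no loop had under 2 PETs. What aligned the reads, what called the loops and on which build is not given in the sources used here.

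Lists were read with Python 3.11.15, numpy 2.4.6, pandas 2.3.3 and scipy 1.17.1. Starts were made 1-based, and distinct anchors were assigned by midpoint. All sequence up to the last anchor end in either list and outside the windows served as the rest. Total tags were the product of both anchors' tags over the Poisson mean that gives the deposited p-value, taken over 2-PET loops whose anchors both exceeded 200 tags. Anchors were found again if they overlapped by at least 1 bp. Intervals are exact Poisson for numbers, Clopper-Pearson for shares and PET ratios, and from binomial order statistics for medians. Intervals of differences and ratios of medians combine those of both sides. In calls, a region with fewer than 3 PETs in a list entered its ratio at a floor of 3 PETs. The calls were tested on simulated data. Columns without a sample numbered 0.

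Named regions were the 5 window anchors with most partners, the 5 crossing loops with most PETs, the 3 longest, the 5 window-to-window loops with most PETs, and the 5 higher and 5 lower regions ranked by the interval bound nearest 1, of which the text prints a part. The members, lists and tests were chosen with earlier results of these data known. With no annotation of the build, planned work on genes was not done and no sequence is printed. Alternatives were other windows, PET minimums, scalings, overlaps and left-out chromosomes.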

Additional observations from a re-analysis of the deposited data

How the results depend on the processing

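Of 193 alternative values, 162 stayed within counting error of the main value or within 1.5 times of a count. Another 27 moved, and 4, all of span, changed sign. Leaving out each chromosome moved none of the measures of density, width, tags, span and retention. It gave 12 values for each measure, which share most of their data with the main value. The number that stayed is therefore no measure of robustness. With windows of 1 Mb the log2 ratio of density was -1.75 in Dongjin and -1.71 in osemf2b, and with 3 Mb it was -0.95 and -1.01, since density climbs with distance. Windows of 1 Mb also gave log2 ratios of -0.39 for width and -0.59 for tags in Dongjin and 2.25 for span in osemf2b. Loops of at least 5 PETs gave -1.45 and -1.4 for density in Dongjin and osemf2b, and 0.53 for tags in osemf2b. Span was the least stable. Its log2 ratio was 0.33 in Dongjin for loops of at least 3 PETs, -0.22 in Dongjin and 0.38 in osemf2b for at least 5 PETs, -1.01 and -0.39 with both anchors in the window, which limits the span by construction, and 0.19 and -0.04 when weighted by PETs. Crossing fell to 11.7% in Dongjin and 10.8% in osemf2b at 3 PETs and to 7.46% and 8.94% at 5. Retention differed by 9.86 points for anchors of 1000 to 2000 bp and by 13.5 for 200 to 500 tags. Higher window regions numbered 16 on total tags, 5 without scaling and 15 in windows of 1 Mb. Lower ones numbered 165 on PETs within chromosomes, 126 with at least 50 PETs, 102 with a loop in both lists, 73 in windows of 1 Mb and 484 in windows of 3 Mb, where fewer or more regions were compared. Where no construction is named, the cause was not tested. No paired analysis was possible because each list pools both replicates, so no replicate could be left out either. Loops under the deposited thresholds are unseen, and osemf2b had fewer PETs, which limits its short-range crossing counts.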
